A study of Drosophila melanogaster with 21 samples.

Results

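The genes followed here were the subunits of the TOR kinase complexes, the proteins that switch the kinase on or off, and its best known effectors. The members were the 10 rows of the count table whose symbol is Tor, raptor, rictor, Lst8, S6k, Thor, Rheb, Tsc1, gig or REPTOR, of 17612 gene rows in all, and each symbol matched 1 row. They were chosen by function and not by their counts, although the study itself had singled out Lst8 from these same libraries, so that its rise in older mutants is not independent evidence. RNA was sequenced from dissected brains in 2 separately run experiments. Set 1 held flies of genotype 5905 (the w1118 control strain) and flies carrying {delta}miR-34, a deletion of the microRNA miR-34 in the w1118 background, each at 3d and 20d of age. Set 2 held only 5905 controls, at 3d, 20d and 50d. Each of the 7 groups had 3 biological replicates, and each replicate pooled 20 brains. All flies were males kept on molasses food, and the labels give no drug or other treatment. The mutation was constitutive and not limited to a cell type, whole brains mix neurons and glia, and fewer cells of a type cannot be told apart from less RNA per cell.

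TOR is a protein kinase that couples nutrients and insulin signalling to growth. In complex 1 it is joined by Raptor, which brings in substrates, and in complex 2 by Rictor, and Lst8 sits on the kinase domain in both. The small GTPase Rheb switches complex 1 on, and the Tsc1 and Gigas (Tsc2) pair keeps Rheb off. Active complex 1 phosphorylates S6k, which promotes ribosomal and translational activity, and Thor, the fly 4E-BP, which otherwise holds the cap-binding protein eIF4E and represses translation. It also keeps the transcription factor REPTOR out of the nucleus, and it restrains autophagy. Most of this control acts on the proteins, and only transcript levels were measured here.

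Library totals ran from 17932132 to 23109013 counts in set 1 and from 30890607 to 43713430 in set 2, and the members had between 188 and 7952 counts in a library. Levels are given as CPM, the usual scaling of a gene's count to its library size, here with TMM factors. Neuron and glia markers were well detected, with summed levels of at least 4786 and 1774 CPM. Photoreceptor markers summed to 16490 to 53790 CPM, above the neuron sum in every group. They also varied within a group, from 16490 to 36910 CPM in the 20d mutants. Fat body markers summed to 1954 to 4656 CPM. The libraries thus also held RNA of photoreceptor and fat body genes, and its bearing on the members' levels was not tested. No marker on the neuron, glia, photoreceptor, fat body, hemocyte or muscle lists was at 0 in all libraries of a group. The mir-34 gene had no row in the table. The long noncoding RNA lncRNA:CR43459, its host transcript, held 182 to 192 counts in 3d controls, 17989 to 23664 in 3d mutants, 349 to 435 in 20d controls and 15243 to 20781 in 20d mutants. This transcript separated the genotypes as labelled, but it did not measure the loss of the microRNA.

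Per kilobase of exon, the switch and the translational repressor were the most abundant members and the complex subunits mostly the least, although Lst8 overlapped gig in the 20d and 50d controls of set 2. In set 1 3d controls Rheb stood at 60.5 ± 2.98 CPM per kb (mean ± SD, n = 3) and Thor at 35.6 ± 4.77. S6k followed at 23.0 ± 0.64, REPTOR at 20.3 ± 0.93, Tsc1 at 15.0 ± 0.61 and gig at 9.03 ± 0.49, each group of libraries lying clear of the next. Lst8 (6.84 ± 0.45), Tor (6.27 ± 0.25), raptor (6.24 ± 0.11) and rictor (6.19 ± 0.04) could not be put in an order, since neighbours among them overlapped. The level of raptor is also less certain, since it shares exon bases with Mipp2 and the treatment of such reads is not given. Thor and Rheb held the first and second place in every group. Thor was above Rheb in both mutant groups and in all 3 ages of set 2, where it reached 118 ± 7.76 CPM per kb at 50d, although Thor and Rheb libraries overlapped in the 3d controls of set 2 and the 20d controls of set 1. REPTOR has 7 annotated transcripts, and with the length of the longest one its level in 3d controls of set 1 became 25.6 in place of 20.3 CPM per kb, which put it above S6k.

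**Figure D1:**
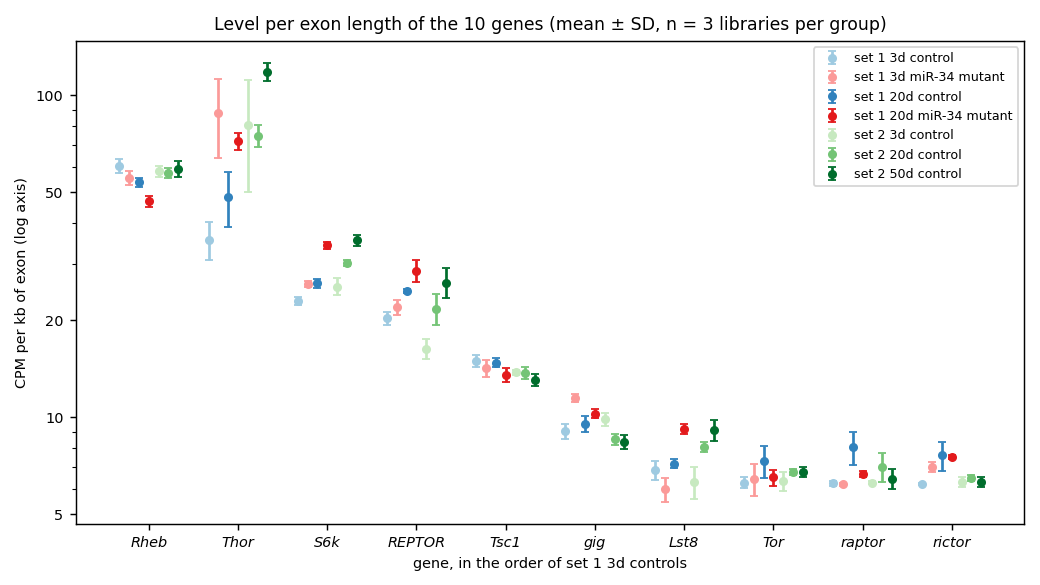
Level of each of the 10 genes in CPM per kilobase of exon on a log axis, as mean ± SD of 3 libraries for each of the 7 groups, with genes in the order of the set 1 3d controls. Thor spans the widest range, from 35.6 in 3d controls of set 1 to 118 in 50d controls of set 2, and Tor, raptor and rictor lie close together at 6.19 to 8.06 in every group.

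The comparisons numbered 8, with 5 in set 1 and 3 in set 2, and were tested in edgeR by quasi-likelihood, with Benjamini-Hochberg adjusted p over all genes tested (9961 in set 1 and 10525 in set 2). A gene was called significant at an adjusted p under 0.05, and all 10 members passed the filter on low counts in both sets. In 3d mutants against 3d controls 31.4% of all genes tested were called (16.5% higher and 15.0% lower), and of the members 3 were higher and 0 lower. In 20d mutants against 20d controls the background was 32.1% (16.6% higher and 15.4% lower), and 3 members were higher and 2 lower. For the age change in set 1, control brains had a background of 24.6% (11.3% higher and 13.3% lower) with 4 members higher and 0 lower, and mutant brains one of 46.0% (22.8% higher and 23.2% lower) with 3 members higher and 2 lower. The age change differed between the genotypes for 18.6% of all genes (8.29% more positive in mutants and 10.3% more negative) and for 2 members, both more positive. In set 2 at 20d against 3d, 39.2% of genes were called (19.3% higher and 19.9% lower), and 3 members were higher and 1 lower. At 50d against 20d the background was 9.72% (5.51% higher and 4.21% lower) with 1 member higher, and at 50d against 3d it was 50.8% (25.9% higher and 24.9% lower) with 3 members higher and 1 lower. The share of members called was thus close to that of all genes in most comparisons. It was furthest above it in 20d mutants and in the age change of control brains of set 1, and these gaps in a list of 10 were not tested. Their median log2 difference lay between -0.13 and 0.20 over the comparisons, against -0.02 to 0.02 for the median of all genes. Comparisons within a set share groups, so a gene called in several of them has not been tested independently each time.

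**Figure D2:**
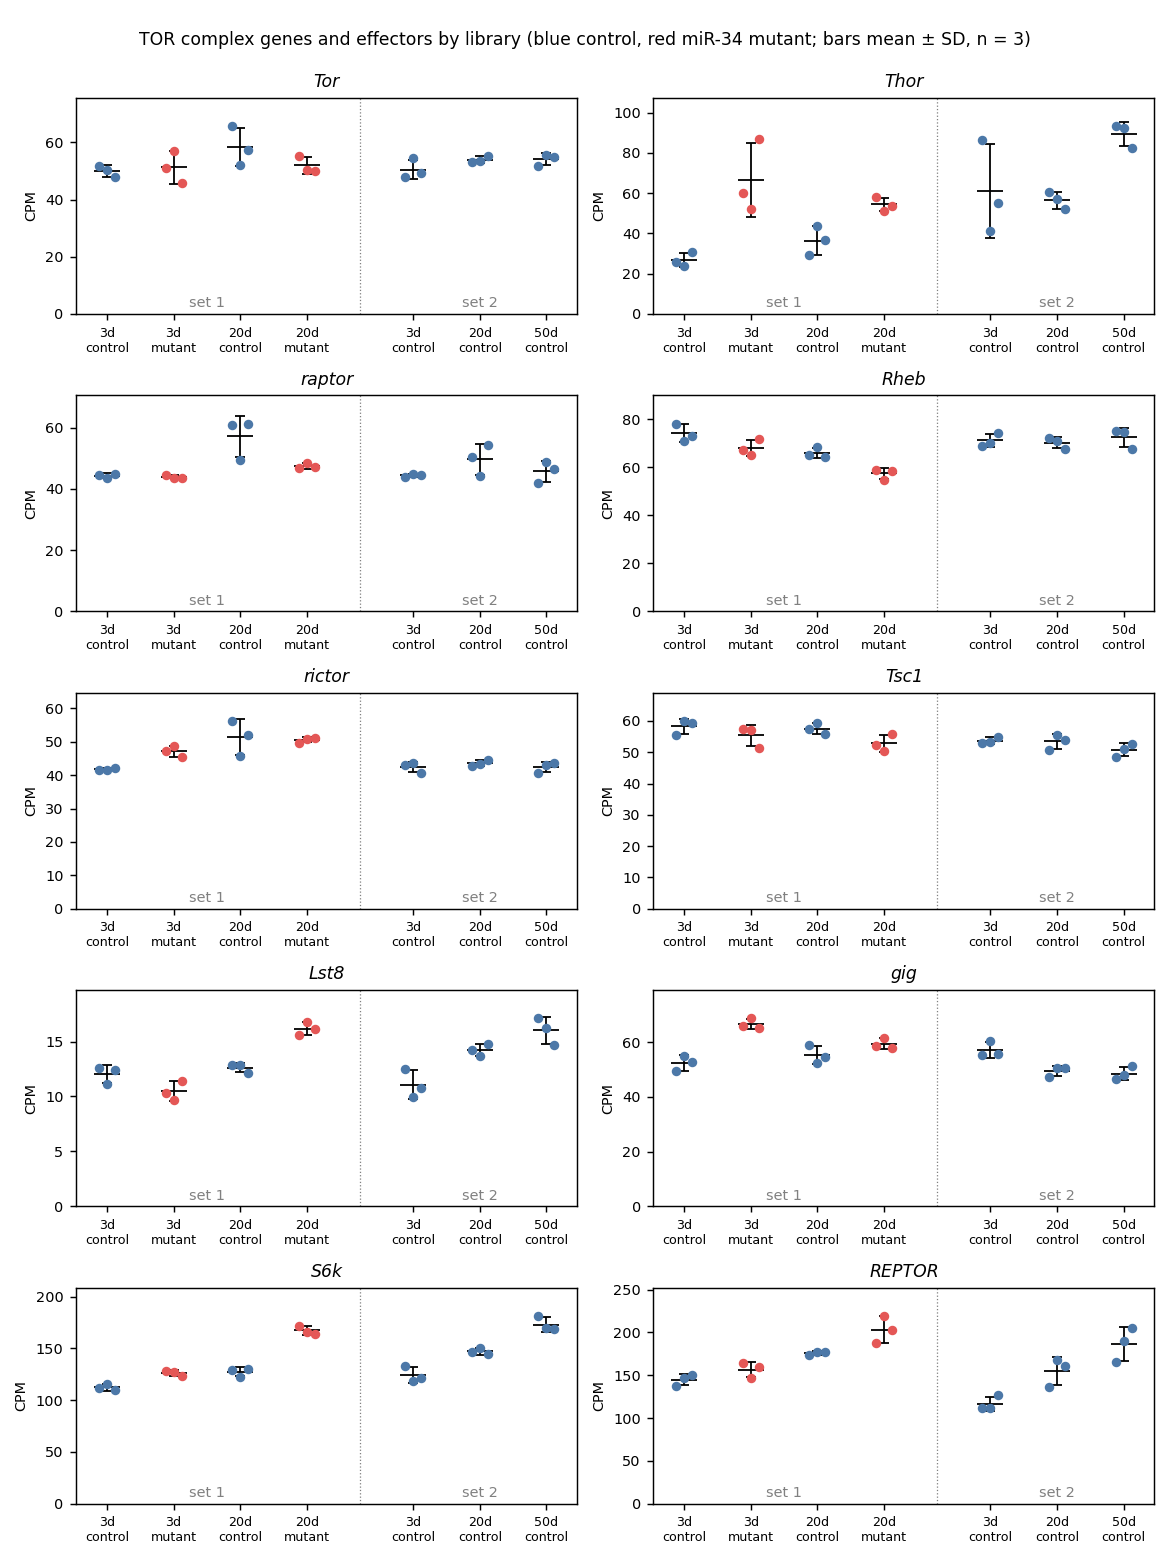
CPM of each gene in every library, with the 4 groups of set 1 left of the dotted line and the 3 of set 2 right of it. Points are single libraries (blue control, red miR-34 mutant), and bars give the mean ± SD of 3 libraries on axes that start at 0. The means of Lst8 and S6k are highest in set 1 in the 20d mutants and in set 2 at 50d, and 1 of the 3d controls of set 2 stands high for Thor at 86.6 CPM.

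Of the complex subunits, Lst8 was significantly higher in 20d mutant brains and the others were not. Lst8 (FBgn0264691, X:9604154-9605969, minus strand, build BDGP6.54) measured 12.6, 11.2 and 12.4 CPM in the 3d controls and 10.3, 9.72 and 11.4 CPM in the 3d mutants. At 20d it measured 12.9, 12.9 and 12.2 CPM in controls and 15.6, 16.8 and 16.1 CPM in mutants. The genotypes overlapped at 3d and were separate at 20d, with the mutants on top. Lst8 was 1.28-fold higher in 20d mutants than in 20d controls (log2 difference 0.36 ± 0.09 SE, 95% interval 0.18 to 0.54, adjusted p = 0.00533, edgeR). At 3d the mutants were at 0.87 times the control level, which did not pass the test (log2 difference -0.20 ± 0.09, adjusted p = 0.0992). On plain library totals, without TMM factors, this difference passed (-0.25, adjusted p = 0.0471), and it was -0.18 relative to the median of all genes. Lst8 rose 1.54-fold with age in mutant brains (adjusted p = 5.57e-05), while in control brains of set 1 its log2 difference was 0.07 ± 0.09 (adjusted p = 0.604). The age by genotype interaction was significant, with a difference between these age changes of 0.56 ± 0.12 on the log2 scale (adjusted p = 0.00692).

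In control brains of the second experiment Lst8 rose with age. It measured 12.5, 9.97 and 10.8 CPM at 3d, 14.2, 13.7 and 14.7 CPM at 20d, and 17.1, 16.3 and 14.7 CPM at 50d. Both older groups lay above the 3d libraries, and the 20d and 50d libraries overlapped. Lst8 rose 1.28-fold by 20d (adjusted p = 0.0114) and 1.45-fold by 50d (adjusted p = 0.000618, edgeR), with the 50d against 20d step at 0.17 ± 0.10 on the log2 scale (adjusted p = 0.311). The 20d change was thus called in control brains of set 2 and not of set 1. A test of the difference between the sets, added after the values were seen, did not pass (log2 difference 0.29 ± 0.14, interval 0.00 to 0.58, adjusted p = 0.207). A stretch of 127 bases of Lst8 exon overlaps Gga, a gene on the opposite strand, and the strand setting of the counting was not given in the sources used here. Gga itself was called only in 3d mutants against 3d controls, at a log2 difference of 0.20 (adjusted p = 0.0453), and at 20d its difference was 0.12 (adjusted p = 0.218).

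Transcripts of the kinase itself did not change significantly with all libraries and TMM scaling. Tor (FBgn0021796, 2L:13004480-13013197) ranged from 45.7 to 65.7 CPM over all 21 libraries and was called in 0 of the 8 comparisons by edgeR or DESeq2, with an unadjusted p under 0.05 in 1. The nearest to the threshold was the age change in control brains of set 1, from 51.9, 50.4 and 47.9 CPM at 3d to 65.7, 52.2 and 57.2 CPM at 20d (log2 difference 0.22 ± 0.09, interval 0.02 to 0.42, adjusted p = 0.0952). It passed the test when the 20d control replicate 2 was left out (0.29, adjusted p = 0.0323). Replicate 2 had the lowest Tor level of the 20d controls, and it was also lowest for raptor and rictor. On plain library totals Tor passed in edgeR for this age change (0.35, adjusted p = 0.0299). It also passed there in set 2 at 20d (0.20, adjusted p = 0.028) and 50d (0.25, adjusted p = 0.00682), both against 3d. Relative to the median of all genes Tor then stood at 0.22, 0.09 and 0.08.

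Raptor defines complex 1 and Rictor complex 2, and the levels of both rose with age in control brains of set 1. raptor (FBgn0029840, X:6082634-6090201) went from 44.5, 43.5 and 44.9 CPM at 3d to 60.8, 49.4 and 61.3 CPM at 20d, a 1.29-fold rise (adjusted p = 0.00301, edgeR). rictor (FBgn0031006, X:19252111-19261240) went from 41.5, 41.6 and 42.1 CPM to 56.2, 45.6 and 52.1 CPM, a 1.23-fold rise (adjusted p = 0.00798). In both genes the 3d libraries lay within 2 CPM of each other and below every 20d library. In mutant brains raptor measured 44.5, 43.6 and 43.6 CPM at 3d and 46.7, 48.4 and 47.0 CPM at 20d, which did not pass the test (log2 difference 0.11 ± 0.07, adjusted p = 0.244). At 20d raptor was lower in mutants than in controls, at 0.83 times the control level (log2 difference -0.27 ± 0.07, adjusted p = 0.0119). Without the 20d control replicate 1 or replicate 3 this difference no longer passed (-0.23, adjusted p = 0.0516 and -0.22, adjusted p = 0.0627). Nor did it pass in an edgeR fit of the compared groups alone (-0.27, adjusted p = 0.0547).

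For rictor the 2 genotypes did not differ significantly at either age. Its mutant libraries measured 47.3, 48.7 and 45.3 CPM at 3d, above all 3 of the 3d controls, but the difference of 0.18 ± 0.07 on the log2 scale did not survive adjustment (adjusted p = 0.0733). At 20d they measured 49.7, 50.9 and 51.2 CPM, within the spread of the controls (log2 difference -0.02 ± 0.07, interval -0.17 to 0.13, adjusted p = 0.861). The age change did not differ between the genotypes by the interaction test for raptor (adjusted p = 0.101) or for rictor (adjusted p = 0.192). Without the 20d control replicate 2 it did for both (adjusted p = 0.00565 and 0.0327, edgeR). In set 2 raptor ran from 42.0 to 54.3 CPM and rictor from 40.6 to 44.6 CPM over all 9 libraries, and neither was called at any age. Leaving out the 20d control replicate 2 of set 2 brought raptor past the test at 20d against 3d (0.26, adjusted p = 0.0237). Within a library the ratio of raptor to rictor per kilobase was 1.01 ± 0.01 in 3d controls and 0.89 ± 0.03 in 3d mutants, and 1.06 ± 0.05 in 20d controls and 0.89 ± 0.02 in 20d mutants. It was 0.97 or higher in each control library of both sets and at most 0.91 in each mutant library, a description for which no test was run. On the same strand, raptor shares 1669 of its 7097 exon bases with Mipp2, whose own level was 3.24 to 5.34 CPM in group mean. On the opposite strand asRNA:CR44959 overlaps 241 raptor exon bases, with group means of 0.52 to 1.11 CPM in set 1. This antisense RNA was higher in mutants at 3d (0.915, adjusted p = 0.0382) and 20d (1.025, adjusted p = 0.0207, edgeR). How reads in these stretches were counted is not given, so the size of the raptor to rictor ratio is uncertain.

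**Figure D3:**
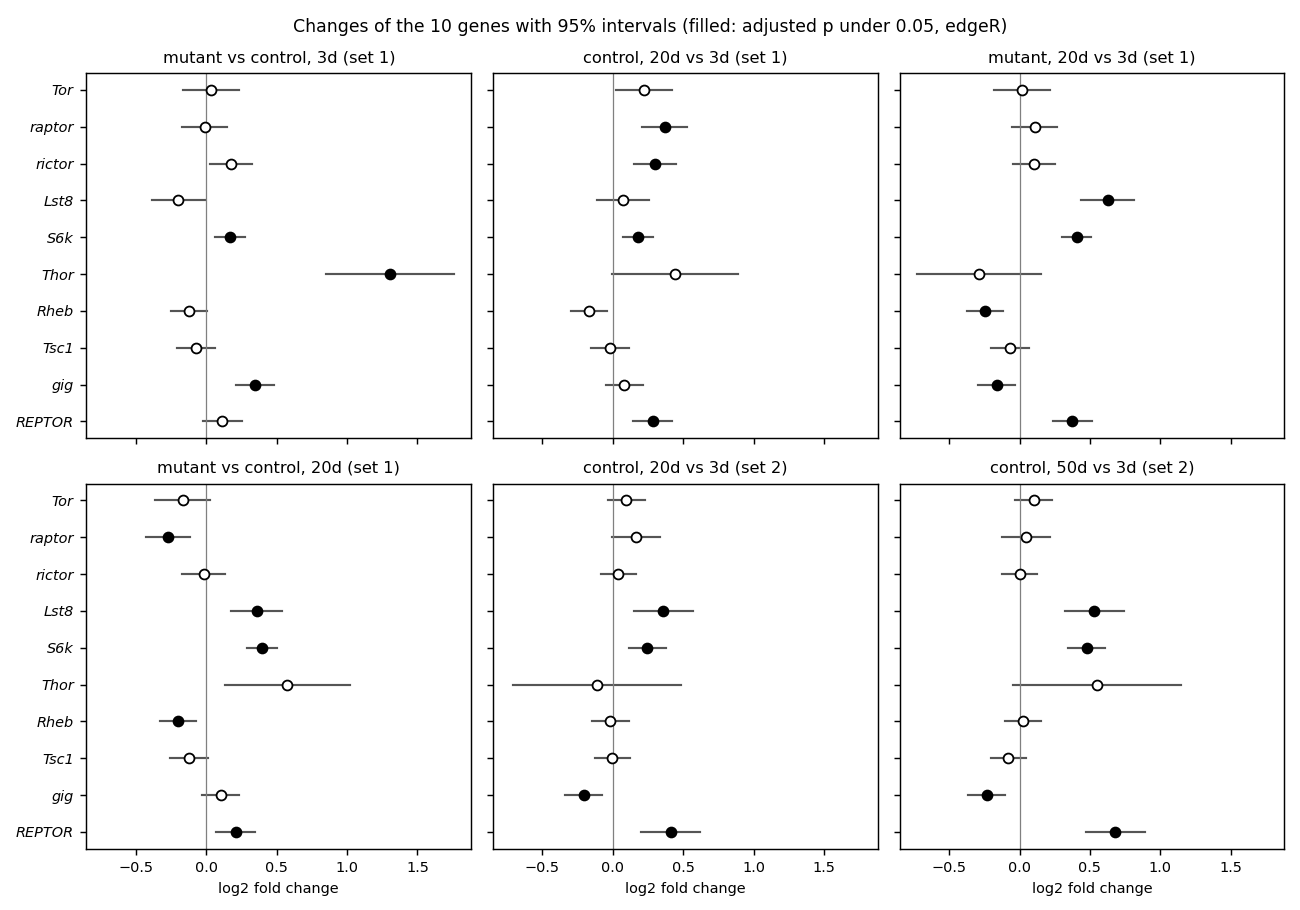
Log2 fold change of each gene in 6 of the comparisons, with 95% intervals from edgeR. Filled points passed an adjusted p under 0.05, and open points did not. S6k is filled in every panel, Thor has the widest intervals, and Tor and Tsc1 are open throughout.

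Among the upstream switches, gig was higher in young mutant brains and Rheb lower in older ones. gig (FBgn0005198, 3L:20129181-20139010) encodes the GTPase-activating subunit that turns Rheb off. It measured 49.3, 54.9 and 52.9 CPM in 3d controls and 65.8, 68.7 and 65.1 CPM in 3d mutants. Every mutant library lay above every control, a 1.27-fold difference (log2 difference 0.35 ± 0.06, adjusted p = 0.000871, edgeR) that was called in each of the 6 fits with a library left out. At 20d the libraries overlapped, with 58.9, 52.5 and 54.7 CPM in controls and 58.8, 61.6 and 57.9 CPM in mutants (log2 difference 0.10 ± 0.06, adjusted p = 0.226). From 3d to 20d gig fell in mutant brains by 0.16 on the log2 scale (adjusted p = 0.0431), a call lost in 5 of 6 fits with a library left out, where its adjusted p ran from 0.0496 to 0.136. That call remained only without the 20d mutant replicate 2, and on plain library totals the value was -0.03 (adjusted p = 0.808), or -0.18 relative to the median of all genes.

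With age in set 2, gig was at 55.4, 60.3 and 55.7 CPM at 3d, 47.2, 50.7 and 50.5 CPM at 20d and 46.4, 48.1 and 51.2 CPM at 50d. The 3d libraries were the highest, and 20d and 50d overlapped. It fell by 0.21 at 20d (adjusted p = 0.0179) and by 0.23 at 50d (adjusted p = 0.00669, both against 3d). The 20d call was lost without the 20d control replicate 1 (-0.17, adjusted p = 0.0658) or the 3d control replicate 2 (-0.16, adjusted p = 0.0943). On plain library totals neither call held (-0.10, adjusted p = 0.243 at 20d, and -0.08, adjusted p = 0.303 at 50d). There the median log2 difference of all genes was 0.115 and 0.173, and gig stood at -0.22 and -0.26 relative to that median. In control brains of set 1 the log2 difference of gig from 3d to 20d was 0.08 ± 0.06 (adjusted p = 0.374), the opposite sign to set 2. The difference between the sets was -0.28 ± 0.09 with an adjusted p of 0.0876 in edgeR, and it passed in DESeq2 (adjusted p = 0.0415).

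Its partner Tsc1 (FBgn0026317, 3R:24130307-24134654), which stabilises the pair, did not follow. It ranged from 48.6 to 60.0 CPM over the 21 libraries, was called in 0 of 8 comparisons by edgeR or DESeq2 (0 with an unadjusted p under 0.05), and had log2 differences between -0.12 and -0.01. In 3d mutants the difference was -0.07 ± 0.06 (interval -0.21 to 0.06, adjusted p = 0.396), where gig was higher. The within-library ratio of Tsc1 to gig per kilobase was 1.66 ± 0.03 in 3d controls and 1.24 ± 0.06 in 3d mutants. At 20d it was 1.55 ± 0.12 in controls and 1.33 ± 0.11 in mutants, and the mutant libraries lay below the set 1 controls at both ages. Young controls of set 2 (3d) had ratios from 1.315 to 1.467, a range that overlapped the 20d mutants (1.217 to 1.433). That range lay above the 3d mutants, which reached 1.295. Older controls of set 2 averaged 1.61 ± 0.02 (20d) and 1.56 ± 0.02 (50d). No test was run on this ratio.

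Rheb (FBgn0041191, 3R:5568921-5570491), which gig acts on, measured 65.1, 68.3 and 64.1 CPM in 20d controls and 58.8, 54.7 and 58.5 CPM in 20d mutants. All 3 mutants lay below the controls, at 0.87 times their level (log2 difference -0.20 ± 0.06, adjusted p = 0.0203, edgeR). Leaving out the 20d control replicate 2 (-0.17, adjusted p = 0.0591) or the 20d mutant replicate 2 (-0.17, adjusted p = 0.0916) ended this call. So did an edgeR fit of the compared groups alone (-0.20, adjusted p = 0.0537). In mutant brains Rheb fell from 67.0, 65.2 and 71.7 CPM at 3d to the 20d values above, by 0.24 on the log2 scale (adjusted p = 0.00436). On plain library totals, which moved the median of all genes by 0.14, that fall was -0.10 (adjusted p = 0.197), or -0.26 relative to the median. Control brains of set 1 went from 78.1, 71.0 and 73.1 CPM at 3d to their 20d values, which just missed the threshold (log2 difference -0.17 ± 0.06, adjusted p = 0.0513). In set 2 Rheb ran from 67.6 to 74.9 CPM over the 3 ages and was not called (log2 differences -0.02 to 0.04).

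S6k was the member called most often. The gene (FBgn0283472, 3L:5797549-5810931) encodes the ribosomal protein S6 kinase. It measured 112, 116 and 110 CPM in 3d controls and 129, 127 and 123 CPM in 3d mutants. At 20d it measured 129, 122 and 130 CPM in controls and 172, 166 and 164 CPM in mutants. No mutant library overlapped the controls of its age, and the 20d mutants were above all other libraries of set 1. The mutants were 1.12-fold above the controls at 3d (log2 difference 0.17 ± 0.05, adjusted p = 0.0187) and 1.31-fold above them at 20d (0.39 ± 0.05, adjusted p = 4.16e-05, edgeR). The 20d difference was called in all 6 fits with a library left out. The 3d difference was not called on plain library totals (0.12, adjusted p = 0.189), nor without the 3d control replicate 3, the 3d mutant replicate 1 or the 3d mutant replicate 2 (adjusted p = 0.0692, 0.0722 and 0.0579).

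S6k also rose with age in both genotypes and in both experiments. In set 1 it rose 1.13-fold in control brains (adjusted p = 0.0173) and 1.32-fold in mutant brains (adjusted p = 1.77e-05). The control rise was not called without the 20d control replicate 1 or 3 or the 3d control replicate 3 (adjusted p = 0.0502, 0.0704 and 0.0689). In set 2 it measured 133, 118 and 122 CPM at 3d, 147, 151 and 144 CPM at 20d, and 182, 169 and 168 CPM at 50d. The 3 ages did not overlap, and the steps were 1.18-fold from 3d to 20d (adjusted p = 0.00715) and 1.18-fold from 20d to 50d (adjusted p = 0.0305, edgeR). The second step, the only call among the members in that comparison, passed in none of the 6 fits with a library left out (adjusted p 0.0507 to 0.112). The age change was larger in mutants than in controls by 0.225 ± 0.07 on the log2 scale (adjusted p = 0.038). This interaction was not called in 9 of 12 fits with a library left out (adjusted p up to 0.0817), and it remained only without the 20d control replicate 1, the 20d mutant replicate 3 or the 3d control replicate 3. Between the sets the 20d change in control brains was 0.18 and 0.24 on the log2 scale, with a difference of 0.07 (interval -0.11 to 0.24, adjusted p = 0.674).

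Thor gave the largest difference of any member, in young brains. It (FBgn0261560, 2L:3478434-3479612) measured 25.6, 24.0 and 30.9 CPM in 3d controls and 59.9, 52.2 and 87.2 CPM in 3d mutants. All 3 mutants lay above the controls and replicate 3 was the highest of them. Thor was 2.47-fold higher in 3d mutants (log2 difference 1.30 ± 0.20, interval 0.85 to 1.76, adjusted p = 0.000985, edgeR), and the log2 difference stayed at 1.06 or above in the 6 fits with a library left out. At 20d it measured 29.3, 43.5 and 36.6 CPM in controls and 58.0, 51.4 and 53.8 CPM in mutants. The groups again did not overlap, but the 1.49-fold difference fell just short of the threshold (log2 difference 0.58 ± 0.20, adjusted p = 0.0502). It passed in DESeq2 (adjusted p = 0.00683) and without the 20d control replicate 2 (0.72, adjusted p = 0.0313). The age change of Thor in set 1 was 0.44 ± 0.20 in controls (adjusted p = 0.143) and -0.29 ± 0.20 in mutants (adjusted p = 0.258), and the difference between them passed in DESeq2 (-0.74, adjusted p = 0.0252) and not in edgeR (-0.73, adjusted p = 0.103).

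In set 2 Thor measured 86.6, 41.0 and 55.3 CPM at 3d, 60.5, 57.0 and 51.9 CPM at 20d, and 93.4, 92.2 and 82.7 CPM at 50d. The 3d libraries differed from each other by more than 2-fold, and replicate 1 among them was as high as the 50d brains. The 50d brains stood above all 20d brains, 1.58-fold, without passing the test (log2 difference 0.66 ± 0.25, adjusted p = 0.172, edgeR). In a fit of those groups alone, which leaves out the scattered 3d libraries, the same difference had an adjusted p of 0.000775. Against 3d the 50d difference was 0.55 ± 0.25 (adjusted p = 0.112), and without the 3d control replicate 1 it was 0.89 (adjusted p = 0.00023). The 3d controls of set 1, at 24.0 to 30.9 CPM, and those of set 2, at 41.0 to 86.6 CPM, did not overlap although strain, age and tissue were labelled alike. Relative to eIF4E1, the cap-binding protein that Thor binds, Thor counts per kilobase of set 1 were 0.28 ± 0.04 at 3d and 0.45 ± 0.07 at 20d in control brains, and 0.71 ± 0.18 and 0.60 ± 0.03 in mutant brains. In set 2 this ratio was 0.68 ± 0.27 at 3d (0.47 to 0.98), 0.71 ± 0.06 at 20d and 1.25 ± 0.05 at 50d, so that the 3d controls of set 2 spanned the level of the 3d mutants of set 1.

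REPTOR increased with age in every series of brains. The gene (FBgn0039209, 3R:24557368-24582864) encodes a transcription factor that becomes active when TOR is inhibited. In set 1 it measured 137, 146 and 150 CPM in 3d controls and 173, 177 and 177 CPM in 20d controls. In mutants it measured 164, 147 and 159 CPM at 3d and 187, 219 and 203 CPM at 20d. Older libraries lay above younger ones in both genotypes, with rises of 1.22-fold in controls (adjusted p = 0.00683) and 1.30-fold in mutants (adjusted p = 0.000342, edgeR). In set 2 it measured 111, 112 and 126 CPM at 3d, 136, 168 and 161 CPM at 20d and 166, 190 and 205 CPM at 50d. REPTOR rose 1.33-fold by 20d (adjusted p = 0.00522) and 1.60-fold by 50d (adjusted p = 1e-04, both against 3d), the largest age change of the members in set 2 to be called. The 50d and 20d libraries overlapped (log2 difference 0.27 ± 0.10, adjusted p = 0.103).

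The genotypes differed less for REPTOR. At 20d mutants were 1.16-fold above controls (log2 difference 0.21 ± 0.06, adjusted p = 0.0239), and no library overlapped. This call was lost without the 20d control replicate 1 (0.20, adjusted p = 0.0621) or replicate 3 (0.21, adjusted p = 0.0563), and without the 20d mutant replicate 2 (0.15, adjusted p = 0.124) or replicate 3 (0.21, adjusted p = 0.0519). On plain library totals it was 0.17 (adjusted p = 0.0505), and in an edgeR fit of the compared groups alone 0.21 (adjusted p = 0.0541). At 3d the difference was 0.11 ± 0.07 (adjusted p = 0.2), and the interaction was not significant (0.09, adjusted p = 0.513).

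Cell type markers moved in some of the same comparisons, and their part in the members' differences was not tested. In 3d mutants 5 of 6 neuron markers were higher, with summed levels of 9458 to 9735 CPM against 6099 to 6890 in 3d controls, and the glia sum was 3652 to 3838 against 2691 to 3145 CPM with 3 of 6 markers higher and 2 lower. The muscle sum was 109 to 163 CPM against 60.0 to 99.3, with 1 of 6 markers higher. Lower in 3d mutants were 2 of 8 photoreceptor and 2 of 7 fat body markers, although both sums overlapped between the genotypes. Of all genes tested, 16.5% were higher and 15.0% lower in 3d mutants. With age 6 of 6 neuron markers fell in mutant brains of set 1 (6469 to 6747 CPM at 20d), where 23.2% of all genes were lower. In control brains of set 2, 6 of 6 were lower at 20d and at 50d than at 3d, and 0 of 6 at 50d than at 20d. Of all genes, 19.9%, 24.9% and 4.21% were lower in these comparisons. The neuron sums of set 2 were 6968 to 7635 CPM at 3d, 4830 to 5400 CPM at 20d and 4786 to 5412 CPM at 50d. In control brains of set 1 the neuron sums were 6099 to 6890 CPM at 3d and 5847 to 6570 CPM at 20d, and 0 of 6 neuron markers were called. The summed glia level was lower in older brains than at 3d without overlap in every series, while the 20d and 50d sums of set 2 overlapped. It was 2691 to 3145 CPM at 3d and 2050 to 2114 CPM at 20d in controls of set 1, and 3652 to 3838 and 2577 to 2590 CPM in mutants. In set 2 it was 2619 to 2848 CPM at 3d, 1808 to 1848 CPM at 20d and 1774 to 1813 CPM at 50d. These sums hide mixed directions, since 2 glia markers were higher and 3 lower in mutants with age and at 50d against 3d. Of all genes, 22.8% were higher and 23.2% lower in mutants with age, and 25.9% and 24.9% at 50d against 3d.

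The glia sum also separated the genotypes at 20d, with 2577 to 2590 CPM in mutants and 2050 to 2114 CPM in controls, and 3 glia markers were higher and 2 lower. At that age 2 of 6 neuron markers were higher and 2 of 8 photoreceptor markers lower in mutants. Of all genes tested, 16.6% were higher and 15.4% lower there. The neuron sum (6469 to 6747 CPM in mutants and 5847 to 6570 CPM in controls), photoreceptor sum (16490 to 36910 and 21190 to 35900 CPM), fat body sum (2187 to 2480 and 2003 to 3038 CPM) and hemocyte sum (130 to 152 and 103 to 156 CPM) overlapped between the genotypes. At 50d the hemocyte sum was 252 to 290 CPM against 202 to 228 at 3d, with 3 of 5 markers higher. The muscle sum was 104 to 177 CPM against 66.8 to 102 at 3d, with 3 of 6 markers higher, and 4 of 8 photoreceptor markers were lower. Of all genes tested, 25.9% were higher and 24.9% lower at 50d against 3d.

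The pathway around these genes was described with 7 lists holding 66 genes, of which 61 were tested in set 1 and 62 in set 2. In 3d mutants 11 were higher and 9 lower, and in 20d mutants 14 were higher and 4 lower, each against controls of that age, where 31.4% and 32.1% of all genes were called. From 3d to 20d in set 1, 10 rose and 6 fell in control brains (24.6% of all genes called), and 22 rose and 7 fell in mutant brains (46.0%). In set 2, 20 rose and 8 fell by 20d (39.2%), and 25 rose and 10 fell by 50d (50.8%), both against 3d, while 6 rose and 0 fell from 20d to 50d (9.72%). The interaction was called for 10, with 7 of them more positive in mutants (18.6%). The share of the listed genes called was thus near that of all genes. The median log2 difference of the listed genes tested was -0.04 in 3d mutants, 0.03 in 20d mutants and 0.14 at 50d against 3d, against -0.02, -0.01 and 0.02 for all genes.

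Of the 4 other subunits and partners listed, 3 were higher and 1 lower at 50d against 3d, where 50.8% of all genes were called. The lower one was Sin1, named after its values were seen. It measured 17.7 ± 0.85 CPM at 3d and 14.7 ± 1.21 CPM at 50d (mean ± SD, n = 3). PRAS40, whose relative in mammals inhibits complex 1, was higher at 20d in control brains of set 1 (0.27, adjusted p = 0.00608) and at 50d in set 2 (0.43, adjusted p = 0.000304, edgeR). hdc, a partner of unk downstream of the complex, rose by 0.46 in control brains of set 1 and 0.65 at 50d (adjusted p = 0.00264 and 5.28e-05). At 20d PRAS40 was the 1 gene of the 4 called in mutants against controls (-0.17, adjusted p = 0.0391), where 32.1% of all genes were called.

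In amino acid sensing the calls in mutants went both ways. Of 16 activators tested, 3 were higher and 2 lower in 3d mutants, and 4 were higher and 0 lower in 20d mutants. In these comparisons 31.4% and 32.1% of all genes were called. The amino acid transporter slif was higher by 0.64 at 3d and 0.41 at 20d (adjusted p = 0.00474 and 0.0474), and BHD, the fly folliculin, by 0.48 and 0.39 (adjusted p = 0.00308 and 0.0101, edgeR). The transporter mnd was lower at 3d (-0.40, adjusted p = 0.0174). From 3d to 20d in control brains of set 1, 0 were higher and 1 was lower (24.6% of all genes called), and in mutant brains 4 were higher and 1 lower (46.0%). At 50d against 3d 5 were higher and 1 lower (50.8%). The transporters JhI-21 (0.95, adjusted p = 1.8e-06) and path (0.60, adjusted p = 3.62e-05) led the rises, while slif was lower (-0.41, adjusted p = 0.00587). Among 5 inhibitors Nprl3, a subunit of the GATOR1 complex, was lower in mutants at 3d (-0.37, adjusted p = 0.00236) and 20d (-0.25, adjusted p = 0.0207). Iml1 of the same complex rose with age in control brains of set 1 (0.41, adjusted p = 0.0397), in mutants (0.56, adjusted p = 0.0044) and at 50d (0.38, adjusted p = 0.000146).

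Energy and stress inhibitors of TOR split in their direction. Lkb1, the kinase that activates AMPK, was higher in mutants at 3d (0.43, adjusted p = 0.000909) and 20d (0.57, adjusted p = 7.98e-05, edgeR), and alc, an AMPK subunit, by 0.19 and 0.25 (adjusted p = 0.0154 and 0.00293). chrb, a fly REDD protein that inhibits complex 1, was lower in 20d mutants (-0.49, adjusted p = 1.17e-05). It fell with age by 0.34 in control brains of set 1 and by 0.91 in mutants, and the interaction was significant (-0.57, adjusted p = 0.000353). In set 2 it fell by 0.53 by 50d (adjusted p = 0.000211). On the insulin branch Pdk1, the kinase that activates Akt, was the 1 gene of 8 called in 3d mutants (0.22, adjusted p = 0.0375). Of all genes tested, 31.4% were called in that comparison. InR, the insulin receptor, rose with age by 0.68 in control brains of set 1, 0.99 in mutants and 1.16 at 50d in set 2 (adjusted p = 0.000101, 9.21e-07 and 2.69e-07). Akt1, the kinase that phosphorylates Gigas, rose by 0.50 at 50d (adjusted p = 1.64e-05).

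Of the listed genes named here, eIF4E6 and Myc, both on the downstream lists, had the largest changes. Genes were named for the size of their change, so this does not rank the lists. In the translation list 2 genes were higher and 4 lower in 3d mutants, and 2 higher and 1 lower in 20d mutants, of 10 tested. Of all genes 31.4% and 32.1% were called there. RpS6, the substrate that names S6k, was lower at 3d (-0.35, adjusted p = 0.00105) and higher at 20d (0.21, adjusted p = 0.0199), and its interaction was 0.56 (adjusted p = 0.00114, edgeR). The eIF4E paralog eIF4E6, whose reads other paralogs may share, was lower in 3d mutants (-1.30, adjusted p = 5.16e-05) and rose with age by 0.72 in controls of set 1, 1.97 in mutants and 1.90 at 50d (adjusted p = 0.00331, 6.15e-07 and 9.22e-07). The cap-binding repressor eIF4EHP was lower in 20d mutants (-0.22, adjusted p = 0.0153) and at 50d (-0.48, adjusted p = 0.000925).

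In the autophagy and transcription list 3 of 12 genes were higher and 2 lower in 3d mutants, and 6 were higher and 0 lower in 20d mutants. Of all genes tested, 16.5% were higher and 15.0% lower at 3d, and 16.6% and 15.4% at 20d. The gap in a list of 12 was not tested. Myc, a driver of ribosome production and growth, was lower in 3d mutants (-0.36, adjusted p = 0.00598) and higher in 20d mutants (0.78, adjusted p = 1.24e-05, edgeR). It rose with age by 0.39 in control brains and 1.53 in mutant brains of set 1, an interaction of 1.14 (adjusted p = 0.000145), and by 1.52 at 50d in set 2 (adjusted p = 8.8e-07). Mitf, the fly TFEB and an activator of lysosomal genes, was lower in 3d mutants (-0.34, adjusted p = 0.00676) and rose by 0.50 in control brains, 1.05 in mutants and 0.89 at 50d (adjusted p = 0.000734, 4.3e-07 and 8.61e-07). foxo, a transcription factor that activates Thor in flies, rose by 0.69 at 50d (adjusted p = 4.56e-06). At 50d 8 of the 12 genes were higher and 3 lower than at 3d, where 25.9% of all genes were higher and 24.9% lower.

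**Figure D4:**
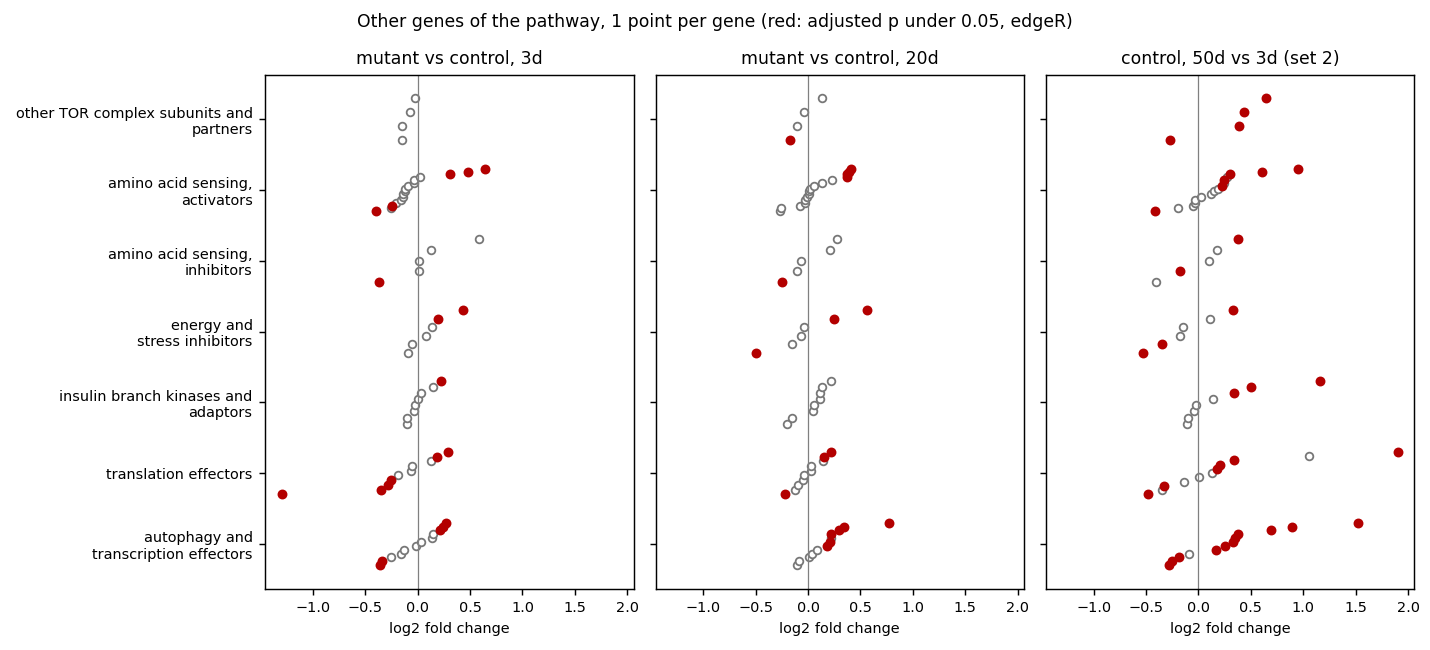
Log2 fold change of the pathway genes outside the 10 members, 1 point per gene tested, by list, in mutants against controls at 3d (left) and 20d (middle) and in 50d against 3d control brains of set 2 (right). Red points passed an adjusted p under 0.05 by edgeR and open points did not. The autophagy and transcription list has 3 genes called higher and 2 lower at 3d, and 6 and 0 at 20d, of 12 tested. Of all genes tested, 16.5% were higher and 15.0% lower at 3d, and 16.6% and 15.4% at 20d.

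The 20d against 3d change of control brains was measured in both experiments, so that the members could be compared between them. S6k and REPTOR were called higher in both sets. raptor and rictor were called only in set 1, and Lst8 and gig only in set 2. Tested as a difference between the sets, a comparison added after the values were seen, 0 of the 10 members passed in edgeR where 4.45% of all genes did, 3 had an unadjusted p under 0.05 (rictor, Lst8 and gig), and DESeq2 called 1, gig. The effects of the 2 experiments on these genes therefore were not shown to differ in edgeR, nor to be alike, since the intervals were wide (for Thor -1.38 to 0.28 on the log2 scale). Each set was run separately, and set and sequencing run cannot be told apart.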

How the data were processed

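Set 1 and set 2 held 12 and 9 polyA-selected RNA libraries of fly brains. The authors aligned the reads with HISAT2 at default parameters to FlyBase genome r6.36, counted them per gene with HTSeq, and deposited whole-number counts per gene without normalization. The strand setting and mode of the counting are not given in the sources used here. All columns matched a library by name. Gene positions and exon lengths came from Ensembl release 115 (BDGP6.54), since the counts carry no coordinates.

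edgeR 4.0.16 (R 4.3.3) gave TMM-scaled CPM and its robust quasi-likelihood test, with 1 fit per set, filterByExpr at a minimum count of 10 and Benjamini-Hochberg adjustment. Only the comparison between sets used a joint fit, of the 3d and 20d controls of both sets (10221 genes tested). Standard errors were the log2 difference over the root of the F statistic. CPM per kilobase used the union of exons. A group of 3 against 3 allows no exact permutation p under 0.1. Every replicate pair differed by more than counting noise. The procedure was tested on simulated counts.

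All 10 members were named throughout, with up to 3 called genes of largest change from each pathway list. Sin1 was named besides, after its values were seen. The members and lists were chosen with earlier results of these data known. The alternatives were DESeq2 1.42.0, RLE factors, no filter, a stricter filter (10 counts or more in every library), fits of the compared groups alone, a replicate block, and leaving out each library. Plain library totals and the comparison between sets were added after seeing the data. Sites of miR-34 in the transcripts were not analysed here.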

Additional observations from a re-analysis of the deposited data

Results flagged for a closer look

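The age by genotype interaction test marked 2 of the 10 members. For Lst8 the change from 3d to 20d was larger in miR-34 mutant brains than in control brains by 0.556 on the log2 scale (SE 0.12, interval 0.29 to 0.82, adjusted p = 0.00692, edgeR), and it was called in all 12 fits with a library left out. For S6k the difference was 0.225 (SE 0.07, interval 0.08 to 0.38, adjusted p = 0.038), and it was called in 3 of those 12 fits. Groups of 3 libraries were too small to be examined for single outlying libraries.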

How the results depend on the processing

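No called value of a member changed direction under any alternative run. Of 90 values each, 87 kept their side of the threshold in DESeq2, 90 with RLE factors, 86 with no filter and 89 with at least 10 counts in every library, as did 63 of 70 with only the groups compared and 614 of 660 with a library left out. The number of members called in 20d mutants against 20d controls was 5, and 3 with only those groups in the fit, all higher. In that fit raptor, Rheb and REPTOR lost their calls (adjusted p = 0.0547, 0.0537 and 0.0541, edgeR), and Thor gained one (adjusted p = 0.0194). The interaction was called for 2 members, and for 1 with no filter, with plain library totals or with the replicate block. At 50d against 20d 1 was called, and 2 with only those groups or with the replicate block. Between the sets 0 were called, and 1 in DESeq2.

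With 1 library left out the number called was 3 to 5 in 20d mutants, 1 to 4 for the interaction, 0 at 50d against 20d, and 0 to 2 between the sets. It was 2 to 3 in 3d mutants, 3 to 6 and 4 to 5 for the age change in control and mutant brains of set 1, and 3 to 5 and 4 to 5 at 20d and 50d against 3d in set 2. Over all genes, the age change in control brains of set 1 gave 2451 calls, and 1548 without the 20d control replicate 3 or 1602 without the 3d control replicate 1. At 50d against 20d there were 1023 calls, and 566 to 680 without any one of the 20d libraries or the 50d replicates 1 and 3. Between the sets there were 455 calls, and 1090 in DESeq2 and 0 to 1214 with a library left out, so that comparison was the least steady of all.

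Same-numbered libraries deviated together for some numbers and not for others. The correlation of their deviations was over 0.1 for every number in none of the comparisons (lowest -0.15, highest 0.41), so the numbers were not taken as pairs. Under the replicate block 86 of 90 values kept their side. S6k lost its interaction (adjusted p = 0.051) and gig its fall in mutants (adjusted p = 0.0525), while Thor passed in 20d mutants (adjusted p = 0.0477) and REPTOR at 50d against 20d (adjusted p = 0.0153). With plain library totals 72 of 90 kept their side, and the median of all genes moved by 0.12 and 0.14 with age in controls and mutants of set 1. Lst8 had the lowest counts of the members, 188 to 660 in a library.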
